A study of Mus musculus with 24 samples.

Results

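The Ube2 genes code for ubiquitin-conjugating enzymes, and their transcripts were followed in single, naturally ovulated mouse oocytes. All entries of the expression table whose symbol begins with Ube2 and a lower-case letter were taken, with names ending in -ps left out, which gave 36 genes of 25965 entries. Messenger RNA had been amplified from each oocyte separately, after the cumulus cells and the zona pellucida had been taken off. The transgenic females were Thy1.2-AMHTg/0 mice, which overexpress anti-Müllerian hormone (AMH), a hormone that granulosa cells make and that restrains the recruitment of follicles. Their wild-type counterparts are described as Thy1.2-AMH0/0. Thy1.2 names a promoter that is known for its activity in neurons, and the females were adults whose strain and exact age the labels do not state. Both groups ovulated naturally, with no hormone treatment named. The 10 transgenic and 11 wild-type oocytes came from 4 females of each genotype, and 1 transgenic and 1 wild-type female shared each of the 4 sequencing lanes. A control RNA supplied with the amplification kit, of unstated tissue, was sequenced once, in lane 4. From the transgenic female of lane 1, oocyte A was not analysed here, nor was a library made from water.

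Ubiquitin reaches its targets along a relay of enzymes. An E1 enzyme activates ubiquitin and hands it to the active-site cysteine of an E2, the conjugating enzyme, and an E3 ligase then brings the loaded E2 to the substrate. Some members of the family carry ubiquitin-like proteins instead, such as SUMO or NEDD8, and a few have lost the cysteine and act only as partners. In the ovulated oocyte, which waits at the second meiotic metaphase, the anaphase-promoting complex (APC/C) is held back until fertilisation. It then uses UBE2C to start and UBE2S to lengthen the ubiquitin chains that mark cyclin B and securin for destruction.

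The libraries held 20440000 to 33340000 reads, and values are given as RPM, each gene counted in 1000000 reads of the library, so that 3 reads correspond to 0.0900 to 0.147 RPM. The 12 oocyte markers were all detected, with summed levels of 29393 to 45959 RPM in transgenic oocytes and 30626 to 49162 RPM in wild-type oocytes, against 26.5 RPM in the control RNA. Of 25 cumulus and granulosa markers, 13 stayed below 1 RPM in every oocyte. Col4a1 had 1.32 to 6.30 RPM over the oocytes. Inha reached 13.7 RPM, Tnfaip6 8.39 RPM and Hsd3b1 7.04 RPM in the highest oocyte, and the rest stayed lower. The sum of the 25 markers was 2.04 to 8.68 RPM in transgenic oocytes and 1.66 to 46.1 RPM in wild-type oocytes, with the highest value in oocyte C of the wild-type female of lane 2. Of 7 blood and immune markers, Hba-a1, Hbb-b1, Ptprc and Lyz2 stayed below 1 RPM in every oocyte. Csf1r had 4.35 to 15.4 RPM over the oocytes, Laptm5 1.91 to 12.9 RPM and Cd68 0 to 7.00 RPM. The sum of the 7 markers was 12.4 to 24.7 RPM in transgenic and 11.6 to 31.1 RPM in wild-type oocytes. It was 278 RPM in the control RNA. Amh itself, a granulosa cell gene, had 1 read over the 21 oocytes together, so oocyte libraries cannot check the transgene.

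The family was broadly expressed in the oocyte. Of the 36 genes, 32 had reads in every oocyte, 8 averaged at least 100 RPM, 16 lay between 10 and 100 RPM, 7 between 1 and 10 RPM and 5 under 1 RPM. Ube2d3 alone made up 31.1% of the summed RPM of the family, and the top 5 genes 68.9%. Since RPM is not divided by length, the order of the genes is given next as RPM per kb of annotated exon sequence. By that measure the means over oocytes were highest for Ube2k with 66.2 RPM per kb, with Ube2t at 64.0, Ube2d3 at 47.0 and Ube2g1 at 37.8 RPM per kb among the next. The place of Ube2t rests on lane 4: its median oocyte had 29.5 RPM per kb, or 24.1 over lanes 1 to 3, against 67.2 and 65.1 RPM per kb for Ube2k. With each female weighted equally its mean was 76.0 RPM per kb, against 66.7 RPM per kb for Ube2k. The same 10 genes came first whether RPM, RPM per kb of exons or RPM per kb of the longest coding transcript was used. Their order differed, with Ube2d3 at 301 and Ube2t at 278 RPM per kb of coding transcript ahead of Ube2d2 at 114, Ube2s at 113 and Ube2k at 107. Neighbours in the order by RPM per kb of exons mostly could not be separated, since 33 of 35 adjacent pairs had overlapping ranges over the 8 females. The ranges did not overlap between Ube2f and Ube2q1.

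**Figure D1:**
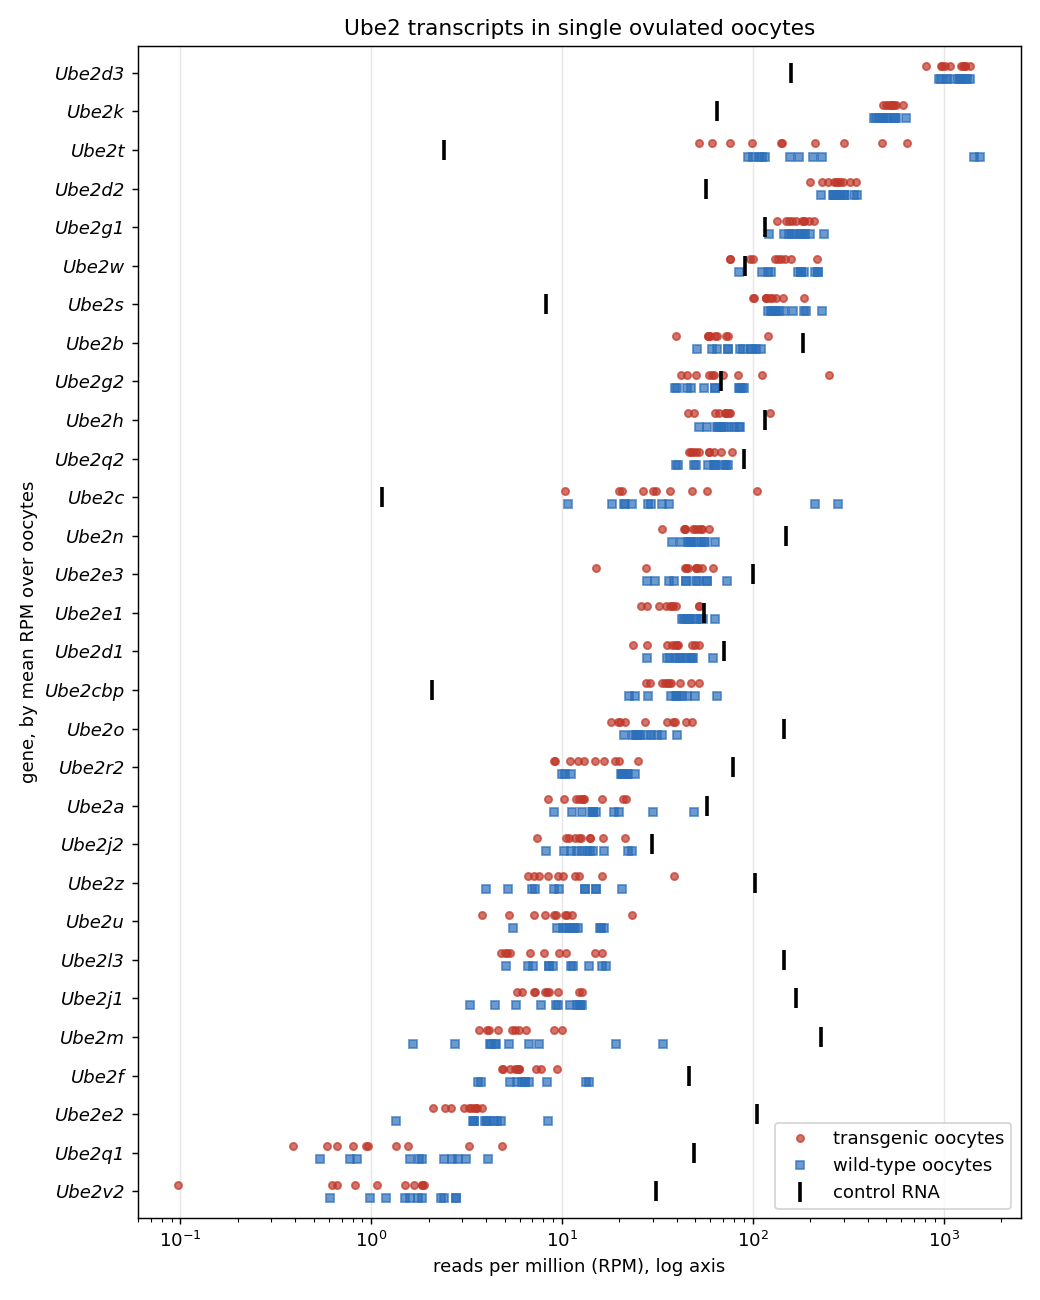
RPM on a log axis of 30 of the 31 Ube2 genes that averaged 1 RPM or more, 1 point per oocyte (circles, transgenic; squares, wild type) and a bar for the single control RNA library; values of 0 cannot be drawn, as for Ube2u in the control RNA. The genotypes lie over each other for nearly all genes, while Ube2t and Ube2c have a long tail to the right.

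Among the broadly acting enzymes, UBE2D proteins work with a large number of ligases. Ube2d3 had the highest RPM of the family, 1152 ± 162 (SD over 21 oocytes), but lay below Ube2k per kb of exons. Ube2d2 averaged 282 ± 38.6 RPM and Ube2d1 41.2 ± 8.86 RPM. Per kb of exons the 3 related genes lay closer, with 47.0 RPM for Ube2d3, 24.4 for Ube2d2 and 9.44 for Ube2d1. Per kb of the longest coding transcript they had 301, 114 and 28.8 RPM. Of the UBE2E genes, whose products have an added N-terminal stretch, Ube2e3 averaged 45.7 ± 13.1 RPM, Ube2e1 43.8 ± 9.34 RPM and Ube2e2 3.68 ± 1.37 RPM. Ube2w, whose product attaches ubiquitin to the N-terminus of proteins, averaged 147 ± 47.8 RPM.

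Ube2k, which codes for an E2 that builds ubiquitin chains, averaged 522 ± 50.5 RPM. In transgenic oocytes it ranged over 481, 536 and 614 RPM (lowest, median and highest) and in wild-type oocytes over 433, 498 and 632 RPM, so that the highest oocyte was close to the lowest. Ube2r2, a CDC34 relative that serves the cullin ligases, had 16.9 ± 5.40 RPM. Ube2h, which works with the CTLH ligase, averaged 70.7 ± 15.9 RPM, and Ube2o, a large enzyme that acts as E2 and E3 in a single protein, 29.4 ± 8.62 RPM. Ube2l3, the partner of HECT and RBR ligases, was low at 9.58 ± 4.03 RPM, as was Ube2z, which takes ubiquitin and FAT10 from UBA6, at 11.8 ± 7.40 RPM. Of the UBE2Q genes, Ube2q2 averaged 57.9 ± 11.1 RPM and Ube2q1 1.80 ± 1.26 RPM. Ube2u averaged 10.9 ± 4.33 RPM.

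Of the enzymes for ubiquitin-like proteins, the pair for NEDD8 was low, with Ube2m, the E2 that neddylates most cullins, at 7.31 ± 7.05 RPM and Ube2f, the E2 that works with RBX2, at 6.80 ± 2.64 RPM. Ube2l6, the conjugating enzyme for the interferon-induced ISG15, had no read in any of the 21 oocytes, against 8.21 RPM in the control RNA.

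Of the RAD6 genes, which act in DNA damage tolerance and histone H2B ubiquitination, Ube2b averaged 75.3 ± 21.1 RPM and its X-linked relative Ube2a 16.6 ± 8.92 RPM. Ube2n, which codes for UBC13, averaged 49.0 ± 7.01 RPM. Its partners, the cysteine-less variants, were scarce, with Ube2v2 at 1.52 ± 0.732 RPM and Ube2v1 at 0.627 ± 0.338 RPM. At the endoplasmic reticulum, the soluble enzymes Ube2g1 and Ube2g2 averaged 173 ± 26.4 and 73.2 ± 45.1 RPM, while the membrane-anchored Ube2j2 and Ube2j1 averaged 13.8 ± 4.21 and 8.89 ± 2.89 RPM. Ube2cbp, which is caught by its name only, codes for a UBE2C-binding ligase and averaged 38.6 ± 10.1 RPM.

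At the bottom of the family, Ube2v1 had 315 reads over all oocytes, Ube2ql1 171, Ube2dnl 32 and Ube2nl 8, and these genes and Ube2l6 were left out of the tests. Ube2nl is a processed pseudogene in the annotation. Sequence shared with other loci bears on several of these values. Of all 100-base windows in the longest coding transcript of Ube2v1, 88.4% also occur in transcripts of another gene, chiefly the readthrough gene Gm20431, which averaged 1.93 RPM in oocytes against 57.4 RPM in the control RNA. The share was 57.9% for Ube2l3 (chiefly Ydjc), 47.4% for Ube2e1 (chiefly the overlapping Nkiras1, at 331 RPM), 32.5% for Ube2h (chiefly Gm26526) and 14.5% for Ube2d2 (chiefly the pseudogene Gm9762, at 24.3 RPM). How reads with several matches were counted is not stated, nor whether strand was kept, so these genes are uncertain. Ube2t, Ube2k, Ube2a, Ube2b, Ube2m and Ube2g1 share no such window.

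Single Ube2 genes lay far to either side of the control RNA. Since there was a single control library no test was possible, and a difference of more than 4-fold on the scale of log2(RPM + 1) is used as a description. Genes with at least 1 RPM in the control RNA or on average over the oocytes were compared. Of 34 such Ube2 genes, 9 (26.5%) were past 4-fold higher in oocytes, where 14.6% of 16105 genes were. Past 4-fold lower were 13 (38.2%), where 42.1% of genes were. The higher set included Ube2t, Ube2c, Ube2s, Ube2cbp, Ube2u, Ube2k, Ube2d3 and Ube2d2. The lower set was Ube2ql1, Ube2m, Ube2e2, Ube2v1, Ube2q1, Ube2j1, Ube2l3, Ube2v2, Ube2l6, Ube2z, Ube2f, Ube2o and Ube2r2.

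Ube2t lay furthest toward the oocyte, with 310 ± 421 RPM in oocytes against 2.40 RPM in the control RNA, a difference of 5.77 on the log2(RPM + 1) scale. The APC/C enzymes followed, with Ube2c at 52.4 ± 68.4 RPM in oocytes against 1.13 RPM in the control RNA, and Ube2s at 140 ± 32.5 RPM in oocytes against 8.21 RPM. The place of Ube2c draws on lane 4. Over lanes 1 to 3 the median oocyte had 26.5 RPM of Ube2c, 126 RPM of Ube2s and 39.9 RPM of Ube2cbp. Ube2cbp had 38.6 RPM in oocytes against 2.09 RPM in the control RNA, and Ube2u had none in the control RNA, which allows up to 0.136 RPM. For each of these 5 genes every oocyte was above the control RNA. In the other direction Ube2m stood at 7.31 RPM in oocytes against 226 RPM in the control RNA, Ube2j1 at 8.89 against 168 RPM, Ube2e2 at 3.68 against 106 RPM and Ube2ql1 at 0.377 against 97.0 RPM. Related genes stood on opposite sides of the control RNA, with log2(RPM + 1) differences of 2.84 for Ube2d3 and -0.79 for Ube2d1.

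**Figure D2:**
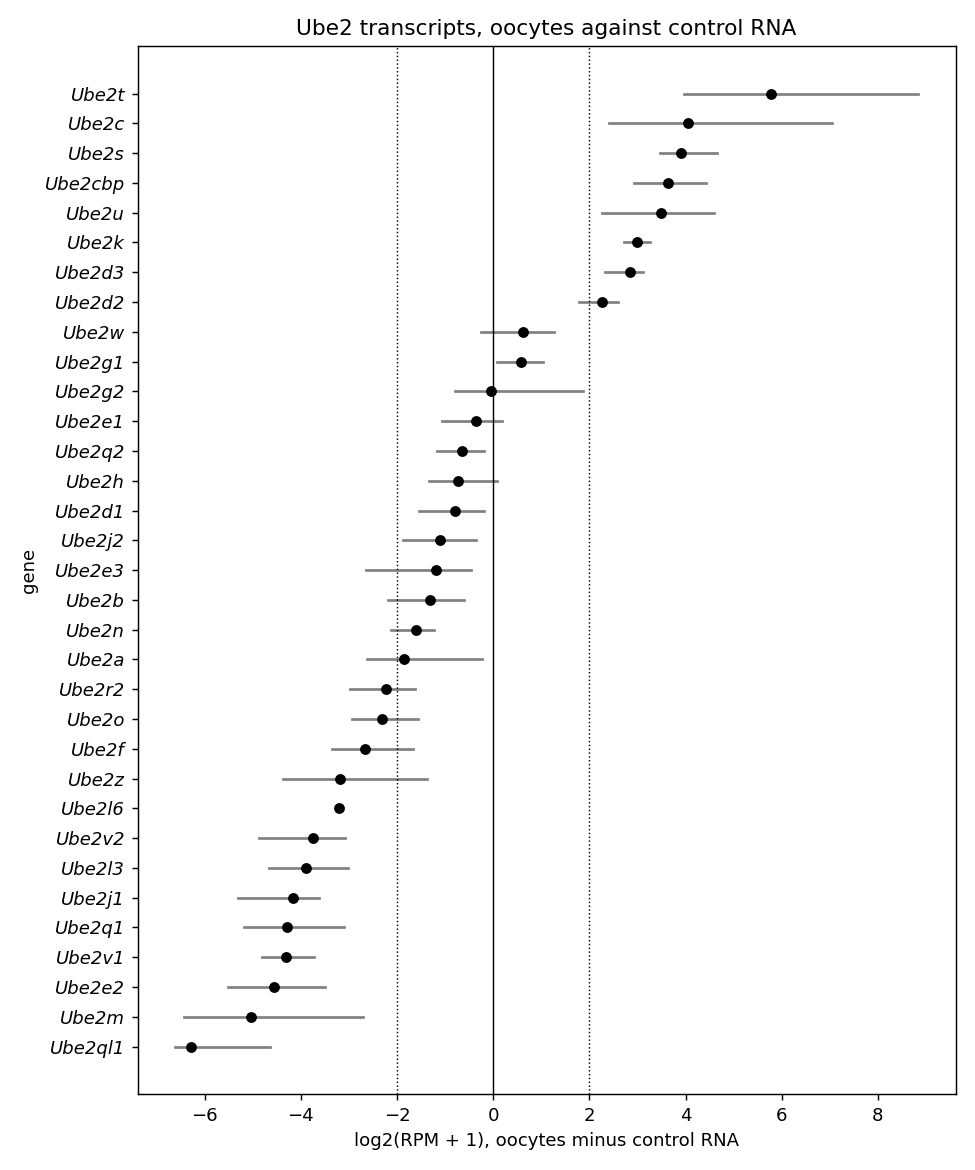
Difference in log2(RPM + 1), oocytes minus control RNA, of 33 of the 34 Ube2 genes compared. Points are means of 21 oocytes, lines span the lowest to the highest oocyte, and dotted lines mark 4-fold. Ube2t, Ube2c and Ube2s stand furthest right and Ube2ql1 and Ube2m furthest left. The place of Ube2c draws on its high values in lane 4.

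The question of the study was whether AMH overexpression alters the oocyte transcriptome, and for the Ube2 genes no difference passed the test. Female means were compared with limma over 10987 genes, of which 31 were Ube2 genes. None of the 31 had an adjusted p under 0.05 (0% of all genes did), and none an unadjusted p under 0.05, where 6.81% of all genes did, 2.78% higher and 4.03% lower in transgenic females. The smallest adjusted p in the family was 0.749, for Ube2e1. With the lane as a block none passed either (0% of all genes, smallest adjusted p in the family 0.515), and 1 Ube2 gene, again Ube2e1, had an unadjusted p under 0.05, against 9.36% of all genes. The differences ran from -0.46 for Ube2t to 0.31 for Ube2g2 on the log2(RPM + 1) scale. The Ube2t value combines lane differences of 0.69, -0.87, -0.20 and -1.45 in lanes 1 to 4. The 31 genes had a median difference of -0.19, against -0.01 over all genes. The sign was negative for 24 of 31 genes, against 52.2% of all genes. In 4 genes, with Ube2e1, Ube2v2 and Ube2s among them, the sign was the same in all 4 lanes, against 18.3% of all genes. It was lower in transgenic females for all 4, against 10.3% of all genes, and higher for none, against 7.97%. Female means of the genotypes did not overlap for 1 gene, against 4.31% of all genes.

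**Figure D3:**
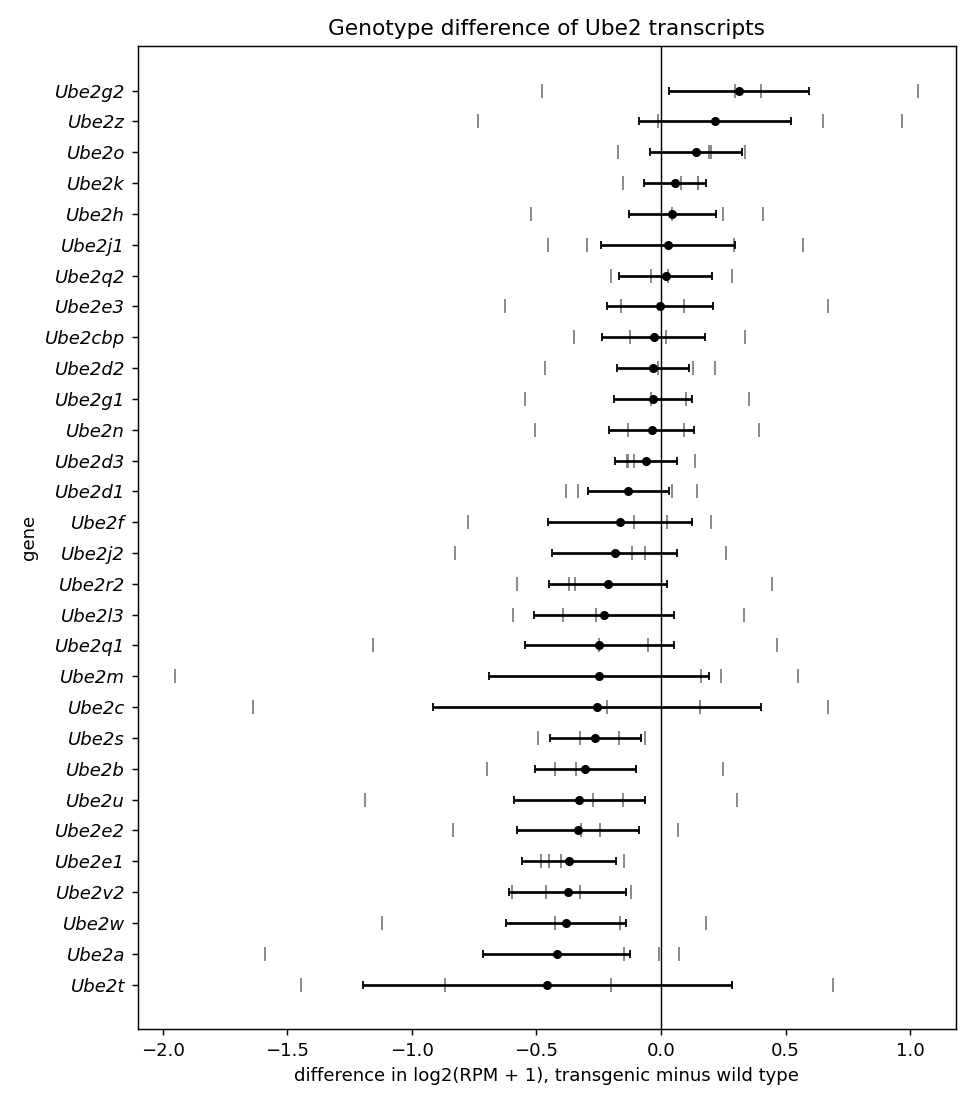
Difference in log2(RPM + 1), transgenic minus wild type, of 30 of the 31 tested Ube2 genes (point, mean over 4 females per genotype; bar, standard error from limma; grey ticks, the 4 lanes). The points lie between -0.46 and 0.31 and most lane ticks fall on both sides of 0.

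Genes with the smallest unadjusted p, and the APC/C partners, are given oocyte by oocyte. In transgenic oocytes Ube2e1 had 38.2 and 36.8 RPM in lane 1, 26.0, 37.9 and 32.3 in lane 2, 39.5, 35.3 and 27.9 in lane 3 and 52.4 and 52.5 in lane 4. In wild-type oocytes Ube2e1 had 45.8, 49.8 and 54.7 RPM in lane 1, 43.6, 44.6 and 42.6 in lane 2, 46.1, 50.6 and 46.6 in lane 3 and 53.7 and 63.0 in lane 4. In each of the 4 lanes all transgenic oocytes were below all wild-type ones, though the genotypes overlapped across lanes. The share of all genes with this order was not counted, and Ube2e1 is given because its p was the smallest. Sister oocytes are not replicates of a genotype. The difference was -0.37 ± 0.19 (log2, standard error; 39.1 ± 9.21 RPM in transgenic females, against 49.9 ± 6.22 RPM in wild-type ones, SD, n = 4 each), with an adjusted p of 0.749 in limma.

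Ube2w, the N-terminal enzyme, had 76.3 and 75.7 RPM in transgenic oocytes of lane 1, 148, 141 and 135 in lane 2, 96.2, 158 and 217 in lane 3 and 101 and 130 in lane 4. Its wild-type values were 186, 220 and 112 RPM in lane 1, 178, 179 and 124 in lane 2, 219, 213 and 173 in lane 3 and 120 and 85.1 in lane 4. The wild-type female was the higher of the pair in lanes 1, 2 and 3 and the lower in lane 4, and the difference was -0.38 ± 0.24 (adjusted p 0.764, limma). It was -0.18 without the transgenic female of lane 1, -0.25 without the wild-type one of lane 3 and -0.58 without the wild-type one of lane 4. Ube2e2 had 3.57 and 2.10 RPM in transgenic oocytes of lane 1, 3.56, 3.46 and 3.25 in lane 2, 3.34, 3.79 and 2.43 in lane 3 and 3.07 and 2.62 in lane 4. The wild-type Ube2e2 values were 3.48, 1.34 and 3.42 RPM in lane 1, 4.57, 4.80 and 3.45 in lane 2, 4.07, 4.07 and 4.40 in lane 3 and 8.47 and 3.93 in lane 4. The genotypes overlapped, and the difference was -0.33 ± 0.24 (adjusted p 0.794), but -0.19 with a pseudocount of 5 RPM or without lane 4's wild-type female, and -0.17 without lane 4.

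In the RAD6 pair, Ube2b had 39.6 and 58.5 RPM in transgenic oocytes of lane 1, 72.1, 58.6 and 59.4 in lane 2, 59.2, 64.8 and 120 in lane 3 and 74.2 and 63.2 in lane 4. The wild-type Ube2b values were 74.1, 89.3 and 73.9 RPM in lane 1, 98.0, 61.0 and 85.9 in lane 2, 98.9, 104 and 110 in lane 3 and 64.6 and 51.2 in lane 4. The wild-type female was the higher one except in lane 4, with a difference of -0.30 ± 0.20 (adjusted p 0.768). This was -0.17 without the transgenic female of lane 1 or the wild-type one of lane 3, and -0.49 without lane 4. Ube2a had 20.9 and 8.49 RPM in transgenic oocytes of lane 1, 12.9, 16.2 and 13.0 in lane 2, 21.6, 12.7 and 10.3 in lane 3 and 12.3 and 11.8 in lane 4. Wild-type Ube2a stood at 12.7, 11.3 and 14.3 RPM in lane 1, 19.8, 9.11 and 15.2 in lane 2, 14.6, 18.7 and 14.6 in lane 3 and 29.8 and 49.1 in lane 4. Its difference of -0.42 ± 0.30 (adjusted p 0.790) came with near-equal pairs in lanes 1 to 3 and a gap of -1.59 in lane 4, and was -0.07 without lane 4's wild-type female and -0.03 without lane 4.

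Ube2v2, the UBC13 partner, had 1.07 and 0.660 RPM in transgenic oocytes of lane 1, 0.623, 1.68 and 1.84 in lane 2, 0.823, 0.0972 and 1.85 in lane 3 and 1.5 and 1.90 in lane 4. In wild-type oocytes Ube2v2 had 1.2, 2.79 and 0.988 RPM in lane 1, 2.80, 1.60 and 0.606 in lane 2, 1.84, 1.51 and 1.76 in lane 3 and 2.32 and 2.41 in lane 4. These are counts of 79 reads or fewer per oocyte, the genotypes overlapped, and the difference was -0.37 ± 0.24 (adjusted p 0.764). It was -0.68 with a pseudocount of 0.1 RPM, -0.14 with 5 RPM and -0.66 in the voom fit. Ube2u had 3.79 and 7.14 RPM in transgenic oocytes of lane 1, 9.34, 8.13 and 10.7 in lane 2, 5.30, 11.3 and 23.2 in lane 3 and 9.09 and 10.4 in lane 4. Wild-type Ube2u stood at 12.1, 16.5 and 11.5 RPM in lane 1, 15.8, 9.45 and 10.1 in lane 2, 16.0, 11.7 and 11.0 in lane 3 and 10.5 and 5.56 in lane 4. The gap was widest in lane 1, at -1.19, and the mean difference was -0.33 ± 0.26 (adjusted p 0.807), or -0.12 without the transgenic female of lane 1 and -0.54 without lane 4.

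Ube2g2, which serves ligases of the endoplasmic reticulum, had a positive difference, unlike the other genes given here. It had 62.4 and 250.3 RPM in transgenic oocytes of lane 1, 69.8, 41.9 and 59.2 in lane 2, 50.4, 60.8 and 45.4 in lane 3 and 112 and 83.5 in lane 4. The wild-type values were 55.5, 44.9 and 89.4 RPM in lane 1, 85.6, 63.0 and 88.2 in lane 2, 40.0, 47.5 and 38.9 in lane 3 and 63.3 and 84.4 in lane 4. Oocyte C of the transgenic female of lane 1 stood above every other oocyte, and the difference of 0.31 ± 0.28 did not pass (adjusted p 0.822). It was 0.08 without that female, 0.13 without the wild-type and 0.50 without the transgenic female of lane 3, and 0.20 without the transgenic one of lane 4.

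Of the APC/C partners, Ube2s had 133 and 127 RPM in transgenic oocytes of lane 1, 117, 118 and 101 in lane 2, 123, 118 and 100.3 in lane 3 and 185 and 145 in lane 4. In wild-type oocytes Ube2s had 136, 125 and 147 RPM in lane 1, 127, 190.4 and 162 in lane 2, 131, 131 and 120.0 in lane 3 and 184 and 229 in lane 4. The transgenic female was the lower of the pair in every lane, with lane differences of -0.07 to -0.50 and a mean difference of -0.26 ± 0.18 (adjusted p 0.784), or -0.12 with lane 4's wild-type female left out. Ube2c had 47.7 and 36.6 RPM in transgenic oocytes of lane 1, 10.4, 26.5 and 20.6 in lane 2, 30.1, 19.8 and 31.0 in lane 3 and 105 and 57.4 in lane 4. Wild-type Ube2c stood at 28.3, 33.5 and 18.3 RPM in lane 1, 36.3, 23.2 and 10.8 in lane 2, 21.3, 29.3 and 21.2 in lane 3 and 211 and 281 in lane 4. All 4 oocytes of lane 4, from 1 female of each genotype, lay above all others, and the difference of -0.26 ± 0.66 (adjusted p 0.938) was 0.20 without lane 4.

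Lane 4 stood apart for a few members of the family. A lane test, limma's F test of the lane on female means with the genotype in the model, and a test of the females were both added after Ube2t and Ube2c had been seen to stand apart in lane 4, so their p-values for these genes describe that observation and are no independent support for it. The lane test called 2 of 10987 genes (0.0182%) at an adjusted p under 0.05. One was Ube2t (p 4.05e-06, adjusted p 0.0380) and the other Plat, which codes for tissue plasminogen activator (adjusted p 0.0380), with 6421 RPM in the transgenic and 8393 RPM in the wild-type lane 4 female, against 1688 to 4256 RPM in the females of lanes 1 to 3. At an unadjusted p under 0.05 the test held 4 of 31 Ube2 genes (12.9%), against 11.5% of all genes. The female test, limma's F test over the 8 females on single oocytes, called 677 genes (6.16%) and 4 of 31 Ube2 genes (12.9%), which were Ube2t (adjusted p 9.34e-06), Ube2c (0.000156), Ube2s (0.0442) and Ube2m (0.0483).

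Ube2t, the E2 of the Fanconi anaemia pathway that ubiquitinates FANCD2 with FANCL, had 212 and 301 RPM in transgenic oocytes of lane 1, 52.4, 76.3 and 99.1 in lane 2, 61.0, 143 and 141 in lane 3 and 474 and 640 in lane 4. Its wild-type values were 207, 116 and 157 RPM in lane 1, 229, 94.7 and 112 in lane 2, 99.7, 175 and 107 in lane 3 and 1448 and 1558 in lane 4. All 4 oocytes of lane 4 lay above all 17 of the other lanes, and the lane 4 mean was 2.78 higher on the log2(RPM + 1) scale than that of lanes 1 to 3. These 4 oocytes come from 1 female of each genotype. The share of all genes that separate lane 4 in this way was not counted. By female, Ube2t had 256, 75.9, 115 and 557 RPM in transgenic females of lanes 1 to 4, against 160, 145, 127 and 1503 RPM in wild-type females. The lane call was lost without lane 4 (adjusted p 0.712), when the wild-type female of lane 4 (0.236) was left out, when that of lane 2 was (0.195), and when the transgenic female of lane 2 was (0.468). With each of the other 5 females left out it had an adjusted p of 0.000479 to 0.0120. In the female test Ube2t kept an adjusted p of 0.0333 without the wild-type female of lane 4, and had 0.182 without lane 4.

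Ube2c had the same order at the top. By female it had 42.2, 19.2, 27.0 and 81.2 RPM in transgenic females of lanes 1 to 4, against 26.7, 23.4, 23.9 and 246 RPM in wild-type females. The oocytes of lanes 1 to 3 lay between 10.4 and 47.7 RPM and those of lane 4 between 57.4 and 281 RPM, with no overlap. Here too the share of all genes that do so was not counted. Its adjusted p in the lane test was 0.103, under 0.05 in 4 of 8 fits with a female left out (0.000591 to 0.0454) and 0.0841 to 0.526 in the other 4. In the female test its call was lost without lane 4's wild-type female (adjusted p 0.112) and without lane 4 (0.471). Ube2s was also highest in lane 4, at 165 RPM in the transgenic and 207 RPM in the wild-type female, against 112 to 160.0 RPM in the other females. Leaving out the lane 4 wild-type female (adjusted p 0.273), that of lane 3 (0.0748) or the transgenic one of lane 2 (0.103) ended its call in the female test.

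**Figure D4:**
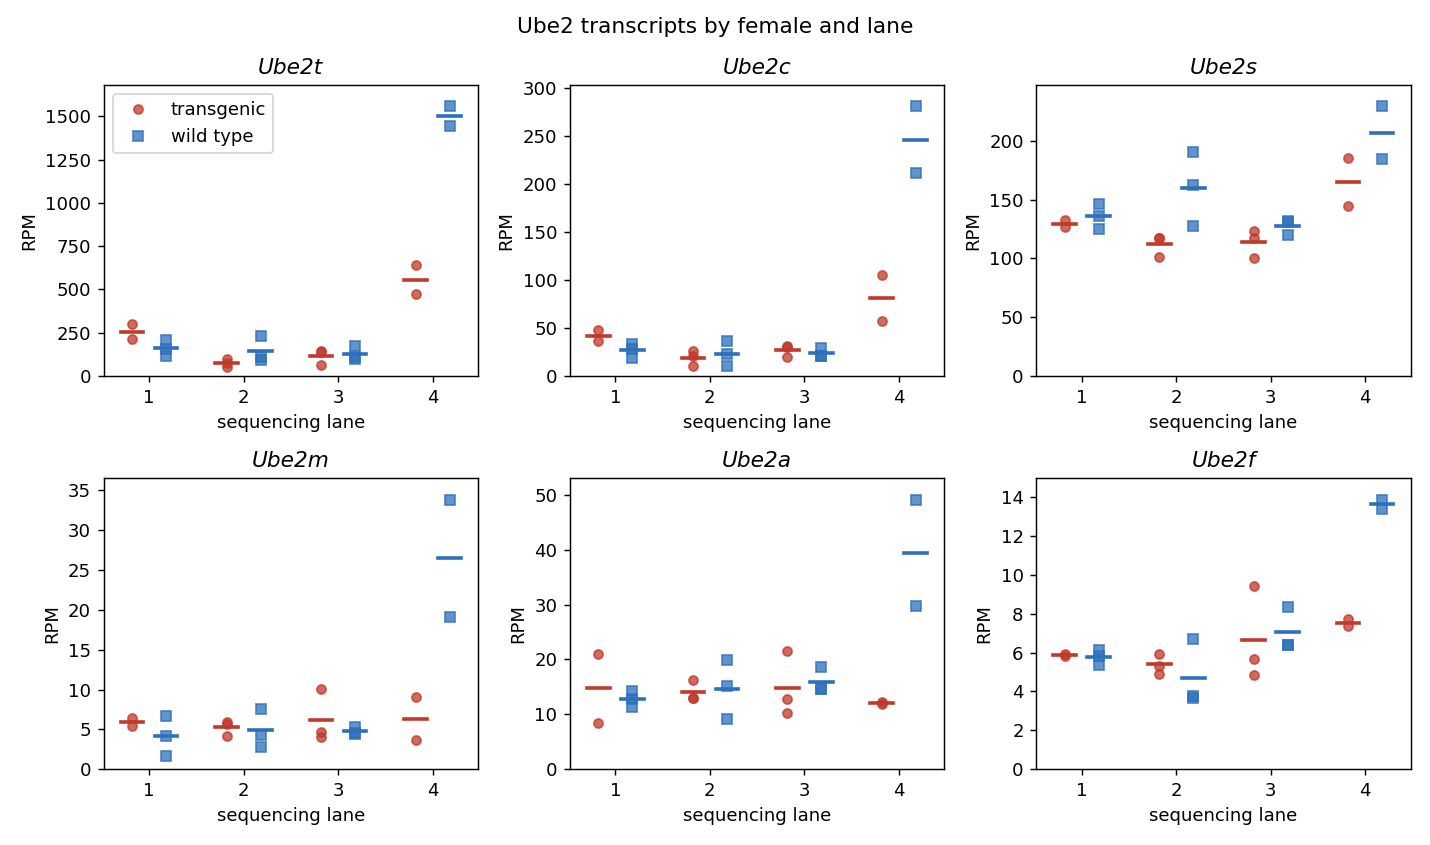
RPM of 6 Ube2 genes by sequencing lane (circles, transgenic oocytes; squares, wild-type oocytes; bars, female means). In lane 4 Ube2t and Ube2c are high in both females, whereas Ube2m, Ube2a and Ube2f are high in the wild-type female alone.

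Other members set the wild-type female of lane 4 apart from its transgenic lane mate. Ube2m had 19.2 and 33.8 RPM in the oocytes of this female, a mean of 26.5 RPM, against 6.36 RPM in the transgenic female of lane 4 and 4.19 to 6.22 RPM in the other females. The Ube2m call in the female test was lost without this female (adjusted p 0.937), as it was when lane 3's wild-type female (0.0760) or lane 2's transgenic one (0.0668) was left out. Ube2a had 39.5 RPM in it, against 12.1 RPM in its lane mate and 12.8 to 15.9 RPM in the others. Ube2f, the second NEDD8 enzyme, had 13.6 RPM in it, against 7.54 RPM in its lane mate and 4.71 to 7.03 RPM in the others. Neither Ube2a (adjusted p 0.127) nor Ube2f (0.159) passed the female test. This female had the highest mean of the 8 for 13 of 31 Ube2 genes, against 16.4% of all genes. It had the lowest mean for 5 (Ube2q2, Ube2cbp, Ube2e3, Ube2o and Ube2j1), against 21.3% of all genes, with Ube2q2 at 40.0 RPM against 48.9 to 65.6 RPM in the other females.

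Some genes around the E2s were high in the same female. NEDD8 itself, the cargo of UBE2M and UBE2F, had 95.8 RPM in this wild-type female, against 31.0 RPM in its lane mate and 19.4 to 36.3 RPM in the others (female test, adjusted p 0.00659). Anapc11, the catalytic RING subunit of the APC/C, had 153 RPM in it, against 35.2 to 60.4 RPM in the other females (adjusted p 0.00223). The NEDD8-activating subunits Uba3 and Nae1 did not pass the female test, at adjusted p 0.348 and 0.690. The females of lane 4 had cumulus marker sums of 6.64 RPM (transgenic) and 5.94 RPM (wild type), within the 4.57 to 20.9 RPM of the other females, and mean totals of 25200000 and 25800000 reads. The control RNA was sequenced in the same lane, with 2.40 RPM of Ube2t and 226 RPM of Ube2m. Of the 10 tested Ube2 genes past 4-fold lower in oocytes than in the control RNA, 4 were highest and 2 lowest in this wild-type female, and of the other 21 Ube2 genes 9 were highest and 3 lowest in it. The part of the control RNA in these values was not tested. The lane and its females cannot be told apart, since no female was sequenced in more than 1 lane.

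The promoter windows of the APC/C enzymes and of Ube2t are shown because Ube2t and Ube2c were highest in lane 4 and these 3 genes stood furthest above the control RNA. For Ube2c both grounds draw on the lane 4 values. They run over 300 bases around the annotated start, and are taken from RefSeq on the GRCm38.p6 build, which had a window for 27 of the 36 genes. Capitals mark CCAAT on either strand (CCAAT or ATTGG), the box bound by NF-Y that is known from many cell cycle promoters. Overlapping matches are each counted, so that CCAATTGG holds one on each strand.
Ube2t: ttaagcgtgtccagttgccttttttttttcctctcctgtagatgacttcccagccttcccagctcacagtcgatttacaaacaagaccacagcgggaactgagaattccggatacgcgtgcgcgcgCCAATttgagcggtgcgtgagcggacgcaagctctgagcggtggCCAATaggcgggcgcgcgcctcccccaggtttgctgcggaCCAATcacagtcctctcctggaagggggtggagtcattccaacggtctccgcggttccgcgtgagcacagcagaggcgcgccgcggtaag
Ube2c: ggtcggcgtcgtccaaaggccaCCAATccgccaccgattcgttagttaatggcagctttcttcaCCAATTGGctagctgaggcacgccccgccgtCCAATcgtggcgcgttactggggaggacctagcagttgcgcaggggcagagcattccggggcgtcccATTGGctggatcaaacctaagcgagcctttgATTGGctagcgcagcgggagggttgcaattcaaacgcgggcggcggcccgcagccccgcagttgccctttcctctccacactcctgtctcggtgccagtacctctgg
Ube2s: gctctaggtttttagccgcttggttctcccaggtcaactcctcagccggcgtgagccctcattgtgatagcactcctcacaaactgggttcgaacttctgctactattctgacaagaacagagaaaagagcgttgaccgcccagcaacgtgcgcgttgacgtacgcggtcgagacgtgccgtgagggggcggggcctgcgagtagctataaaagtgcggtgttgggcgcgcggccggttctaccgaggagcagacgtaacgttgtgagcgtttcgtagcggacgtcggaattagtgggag
The Ube2t window lies on the plus strand at chr1:134962315-134962614 and held 3 matches. The Ube2c window, on the plus strand at chr2:164769679-164769978, held 6 matches. The Ube2s window, on the minus strand at chr7:4812291-4812590, held 0. Of 27025 genes with a window, 37.9% held at least 1 match and 3.56% at least 3, against 7 of 27 Ube2 genes (25.9%) and 3 of 27 (11.1%). The third gene with 3 matches was Ube2f. The cell cycle homology region motif TTTGAA, searched on both strands, was present in the windows of Ube2c, Ube2f and Ube2z, 11.1% of the Ube2 genes against 18.1% of all windows. A match describes letters in a window and is not a binding site.

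Sister oocytes of 1 female differed least for Ube2k. The SD of log2(RPM + 1) between oocytes of a female was combined over the 8 females as a root mean square. It had a median of 0.338 over the 31 Ube2 genes and 0.407 over all tested genes. It was lowest for Ube2k at 0.117, Ube2d2 at 0.15 and Ube2e1 at 0.15, and highest for Ube2z at 0.621, Ube2q1 at 0.592 and Ube2g2 at 0.578. Oocyte C of the transgenic female of lane 1 weighed on the last value, with 250.3 RPM of Ube2g2 against 62.4 RPM in its sister. The same oocyte was also the highest of all for Ube2z, at 38.7 RPM, for Ube2h, at 123 RPM, and for Ube2o, at 48.3 RPM. Ube2t and Ube2c, at 0.465 and 0.504, lay in the upper part of this range.

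**Figure D5:**
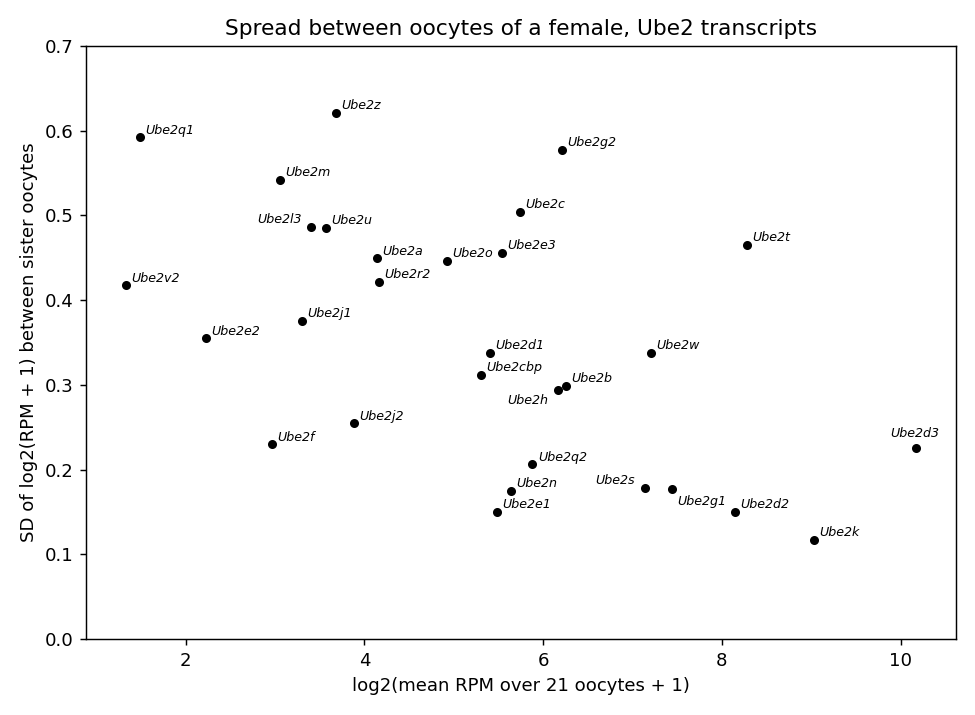
SD of log2(RPM + 1) between sister oocytes against the mean level over 21 oocytes, for 30 of the 31 tested Ube2 genes. The SD is the root mean square over 8 females. Ube2k lies at the bottom at 0.117 and Ube2z at the top at 0.621.

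The rest of the ubiquitin pathway was read from 8 lists, and none of their genes passed the genotype test at an adjusted p under 0.05 in limma. All 10 tested genes for ubiquitin and ubiquitin-like proteins had a lower mean in transgenic females, with a median of -0.32 against -0.01 over all genes, where 52.2% of all genes were lower. Of these 10, 2 had an unadjusted p under 0.05, where 4.03% of all genes had one and were lower. In the same direction the APC/C list had 2 such genes and the list of E2-like genes with other symbols 1. The E1, cullin, SUMO and RAD6, UBC13 or UBE2T ligase lists had 1 each in the higher direction (2.78% of all genes), and the endoplasmic reticulum list had 0. Ubb, a polyubiquitin gene, had 271 ± 22.5 RPM in transgenic females, against 360 ± 41.4 RPM in wild-type ones (-0.42 ± 0.14, adjusted p 0.724). Nedd8 had 27.6 ± 7.52 RPM in transgenic females, against 49.8 ± 30.7 RPM in wild-type ones (-0.73 ± 0.32, adjusted p 0.724), a gap that includes the lane 4 female described above.

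Of 8 tested E1 genes, 7 had a higher mean in transgenic females, with a median of 0.19. Uba2, the catalytic E1 subunit for SUMO, had 165 ± 37.8 RPM in transgenic females, against 132 ± 11.4 RPM in wild-type ones, and Uba3 had 191 ± 27.1 RPM in transgenic females, against 165 ± 9.04 RPM in wild-type ones. Of 8 E2 or E2-like genes with other symbols, 3 were higher and 5 lower, with Atg10, an E2-like enzyme of autophagy, at 16.8 ± 3.71 RPM in transgenic females, against 25.6 ± 7.76 RPM in wild-type ones. Of 17 tested APC/C genes 6 were higher and 11 lower, with a median of -0.03. Anapc16 had 120 ± 24.8 RPM in transgenic females, against 154 ± 1.5 RPM in wild-type ones, and Anapc11 had 47.7 ± 10.3 RPM in transgenic females, against 82.1 ± 47.6 RPM in wild-type ones.

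Of 16 cullin and NEDD8-cycle genes 9 were higher and 7 lower (median 0.00), with Dcun1d2, a neddylation co-ligase, at 60.9 ± 10.4 RPM in transgenic females, against 45.1 ± 7.67 RPM in wild-type ones. Of 13 SUMO ligases and proteases 10 were higher and 3 lower (median 0.08), with Topors at 87.5 ± 15.5 RPM in transgenic females, against 63.7 ± 7.32 RPM in wild-type ones. Of 15 ligases that pair with RAD6, UBC13 or UBE2T 12 were higher and 3 lower (median 0.08). Among them Bard1, the partner of BRCA1, had 23.1 ± 3.30 RPM in transgenic females, against 16.9 ± 2.83 RPM in wild-type ones, and Fancl, the ligase of UBE2T, had 5.17 ± 1.55 RPM in transgenic females, against 7.31 ± 1.37 RPM in wild-type ones. Of 14 genes of endoplasmic reticulum degradation 9 were higher and 5 lower (median 0.14), with Sel1l, the adaptor of the HRD1 ligase, at 48.2 ± 4.77 RPM in transgenic females, against 38.5 ± 5.95 RPM in wild-type ones.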

How the data were processed

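Messenger RNA of single ovulated oocytes was measured after SMART-Seq v4 amplification and ThruPLEX library preparation, per the labels' protocols. Trim Galore, FastQC and HISAT2 stand in the submitters' processing notes, with the builds GRCm39 and mm39 and no versions. No source used here names the counting tool. The deposited values are log2 values described as RPKM, but they are log2 RPM with no division by length. Where a gene had no read the table gives it 0.9 reads, and of 256342 values above 0 and below 2000 reads 100% came out within 0.02 of a whole read. The table's coordinates matched GRCm38, since 99.8% of 24987 matched gene IDs overlapped their GENCODE M21 gene.

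RPM took the place of the planned RPKM. Oocytes of a female were averaged on log2(RPM + 1), which shrinks differences of weakly expressed genes, and genes of at least 1 RPM on average were tested with limma 3.58.1 under R 4.3.3 (functions lmFit and eBayes, with an intensity trend). Tests were two-sided with Benjamini-Hochberg adjustment over 10987 genes and a threshold of 0.05. The scripts were tested on simulated data. Exon lengths, shared 100-base windows and transcripts came from GENCODE M21. By rule, values in every oocyte were given for the 10 members with the smallest unadjusted genotype p and for Ube2c and Ube2s, and up to 3 genes of each pathway list were named by the same p. Values printed for the genes of the lane and female tests, and for Anapc11 there, were chosen after they were seen. A few genes that enter the counts are not reported here by name.

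The members and the lists were chosen with earlier results of these data known. Per the labels, each lane held 1 female of each genotype, so the lane pairs the females. The deviations of lane mates from the means of their genotypes correlated at -0.04, 0.08, 0.34 and 0.32 in lanes 1 to 4. Nothing in the labels says more of how the females were bred or housed. The p-values of the genotype and lane tests rest on the spread between these females. Those of the female test rest on the spread between sister oocytes. Floors of 3 reads cover counting error only, while the ± values are SDs over oocytes or females, or standard errors from limma. Pearson's r across genes between oocytes ran from 0.907 to 0.973, so that no library was a copy of another. Alternatives covered the pseudocount, filter, scaling, lane block, single-oocyte and voom fits, and left-out females.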

Additional observations from a re-analysis of the deposited data

Results flagged for a closer look

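Among the 31 tested Ube2 genes, 62 groups of 4 females were searched for a female whose gap to the nearest of the others exceeded Dixon's critical share of the range of the group, which chance alone gives in about 1 group of 20. In 6 groups a female stood apart, and 4 of these were the wild-type female of lane 4. The rate of 1 in 20 holds for normally distributed values, and the share over all tested genes was not counted. Values of these 4 groups were already given above, so the flags add no separate support. In that female Ube2t had 1503 RPM, against 127 to 160 RPM in the other wild-type females, and Ube2c 246 RPM, against 23.4 to 26.7 RPM. Ube2m had 26.5 RPM in it, against 4.19 to 4.87 RPM, and Ube2q2 40.0 RPM, against 61.6 to 64.4 RPM. The transgenic female of lane 3 had 1019 RPM of Ube2d3, against 1176 to 1182 RPM in the other transgenic females. In lane 1 the wild-type female had 22.3 RPM of Ube2r2, against 16.6 to 17.4 RPM in the other wild-type females.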

How the results depend on the processing

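No Ube2 gene passed the genotype test under any alternative run, with the smallest adjusted p at 0.515 with the lane as replicate block, 0.120 with single oocytes and the lane as replicate block (where 12 genes outside the family passed), and 0.374 to 0.999 with a female left out. The lane and female counts were less stable. The lane test called 1 Ube2 gene, and 0 with a pseudocount of 0.1 RPM (smallest adjusted p 0.0555) or 5 RPM (0.0709), without the filter (0.682), with median-of-ratios scaling (0.0631) and without lane 4 (0.712). It called 0 to 3 with a female left out. The female test called 4 Ube2 genes, 1 to 6 with a female left out, and 0 without lane 4. The difference of Ube2c was positive without the transgenic female of lane 2 (0.06), without the wild-type female of lane 4 (0.57) and without lane 4 (0.20), and ran from -0.63 to 0.57 with a female left out. Past 8-fold rather than 4-fold, 5 Ube2 genes were higher in oocytes than in the control RNA. The shares of all genes past 8-fold or 2-fold are not given here, so counts at these folds describe the family only. In all, 226 other values of single genes kept their direction and their side of the threshold, and 64 counts or spreads moved by no more than 1.5 times, such as 3 to 6 Ube2 genes in the female test and 18 rather than 13 lower than the control RNA at 2-fold. The cause of each change was not tested. Depth limits Ube2v2, Ube2q1 and the 5 genes under 1 RPM.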
